A study of Mus musculus with 6 samples.

Results

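The genes described here are those of respiratory complex I in mouse 4-cell embryos. They were taken as every gene whose symbol begins with Nduf and does not contain -ps, 49 of the 55335 genes listed for each library. Of the 49, 41 carry subunit or subunit-like symbols and 8 are assembly factors (Ndufaf symbols). The embryos form 2 groups of 3 libraries, DRB and Con. DRB embryos were exposed as zygotes to 20 µM DRB, a benzimidazole nucleoside analogue that inhibits transcription elongation, for 20 h from 6 h after fertilization, were washed, and were cultured for 26 h more before collection. Con embryos are the untreated group as far as the labels say; the sources do not state whether they received a vehicle, the strain of the mice or the number of embryos per library. RNA was amplified with an oligo-dT primer by Smart-Seq2, a full-length cDNA method for very small samples.

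Complex I is the entry point of the mitochondrial respiratory chain. Its matrix arm takes electrons from NADH and passes them along a flavin and a chain of iron-sulfur clusters to ubiquinone, and its membrane arm pumps protons. The catalytic core has subunits encoded in the nucleus, which sit in the matrix arm, and subunits encoded in the mitochondrial genome (the ND proteins), which sit in the membrane arm; accessory subunits surround the core, and assembly factors help to build the complex without being part of it. Mitochondria in the cleaving embryo come from the egg and their genome is not replicated until later stages, while nuclear transcripts at this time may be maternal or newly made.

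The values are FPKM, fragment counts scaled by transcript length and by library size, and a gene was tested where it reached 1 FPKM in at least 3 libraries. Fold changes are DRB over Con on the log2(FPKM + 1) scale, which understates changes of low genes, and each p comes from limma fitted on all 11893 tested genes. Depth was similar, at 22500000 to 25800000 fragments per library as estimated from the steps in low values, so that 1 fragment on a 600-base transcript was worth 0.092 to 0.106 FPKM. DRB replicate 1 stood apart in the results below. Con replicate 1 stood apart in the number of genes above 0 FPKM, at 22102. That number was 18485 and 18499 in Con replicates 2 and 3, and 18740 to 19895 in the DRB libraries. The embryo and oocyte markers were present, with Dppa3 at 13434 to 24780 FPKM in DRB and 14608 to 22323 FPKM in Con. Of these 10 markers 0 were called by limma, and 2 were higher (Oosp1 and Obox3) and 1 lower (Tead4) at an unadjusted p below 0.05. Of all tested genes 7.53% were higher and 10.5% lower at that limma threshold. The DRB libraries lay entirely above the Con libraries for Oosp1 and Khdc3, against 9.85% of all tested genes. They lay entirely below them for Tead4 and Zp3, against 13.9% of all tested genes. Oosp1, an oocyte-secreted protein, stood at 178, 199 and 49.8 FPKM in DRB replicates 1 to 3, against 30.9, 47.9 and 37.7 FPKM in Con replicates 1 to 3 (log2 fold change 1.64 ± 0.47 SE, limma adjusted p = 0.0963). Of markers of other cells, 4 of 6 cumulus, 3 of 5 sperm and 2 of 6 blood markers did not pass the filter, with Fshr and Has2 of the cumulus cells at 0 FPKM in every library. Inhba and Ptgs2, also cumulus markers, reached at most 0.03 and 0.54 FPKM, so the cumulus sum rests on Gja1 and Amhr2 only. The summed level of the tested cumulus markers, almost all of it Gja1, was 144 to 276 FPKM in DRB and 213 to 387 FPKM in Con, that of the sperm markers 11.9 to 24.2 and 12.7 to 22.0 FPKM, and that of the blood markers 46.8 to 87.1 and 74.2 to 113.9 FPKM; the part of any of these markers in the results was not tested. In pooled RNA, fewer cells of a kind and less RNA per cell cannot be told apart.

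Complex I transcripts were on the whole lower in DRB embryos, but mostly not by enough to be called gene by gene. Of the 49 genes 46 were tested, and 1, Ndufs7, fell at an adjusted p below 0.05, a call that 0.95% of all tested genes received. None was called higher by limma (background 1.53%), and 1 was higher at an unadjusted p below 0.05 (background 7.53%). At an unadjusted p below 0.05, 10 of the 46 were lower, or 21.7%, where 10.5% of all tested genes were. That count moved with single libraries: it was 6 without DRB replicate 1 (11.3% of all genes), 14 without DRB replicate 3 (10.2%) and 5 without Con replicate 2 (7.51%), and with median-of-ratios scaling it was 6 (8.03%). In 9 of the 46, or 19.6%, the 3 DRB libraries lay entirely below the 3 Con libraries, against 13.9% of all tested genes, and in 1 they lay entirely above, against 9.85%. The log2 fold change was negative for 42 of the 46, or 91.3%, against 56.0% of all tested genes, and its median was -0.43, against -0.09 over all tested genes. This lower median rested largely on DRB replicate 1: without that library it was -0.23 against -0.16 for all genes, and 25 of the 46 lay below the median of all genes, compared with 39 of 46 when all libraries were used. Without Con replicate 2 the medians were -0.31 and -0.09, and without DRB replicate 3 they were -0.62 and -0.04.

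**Figure D1:**
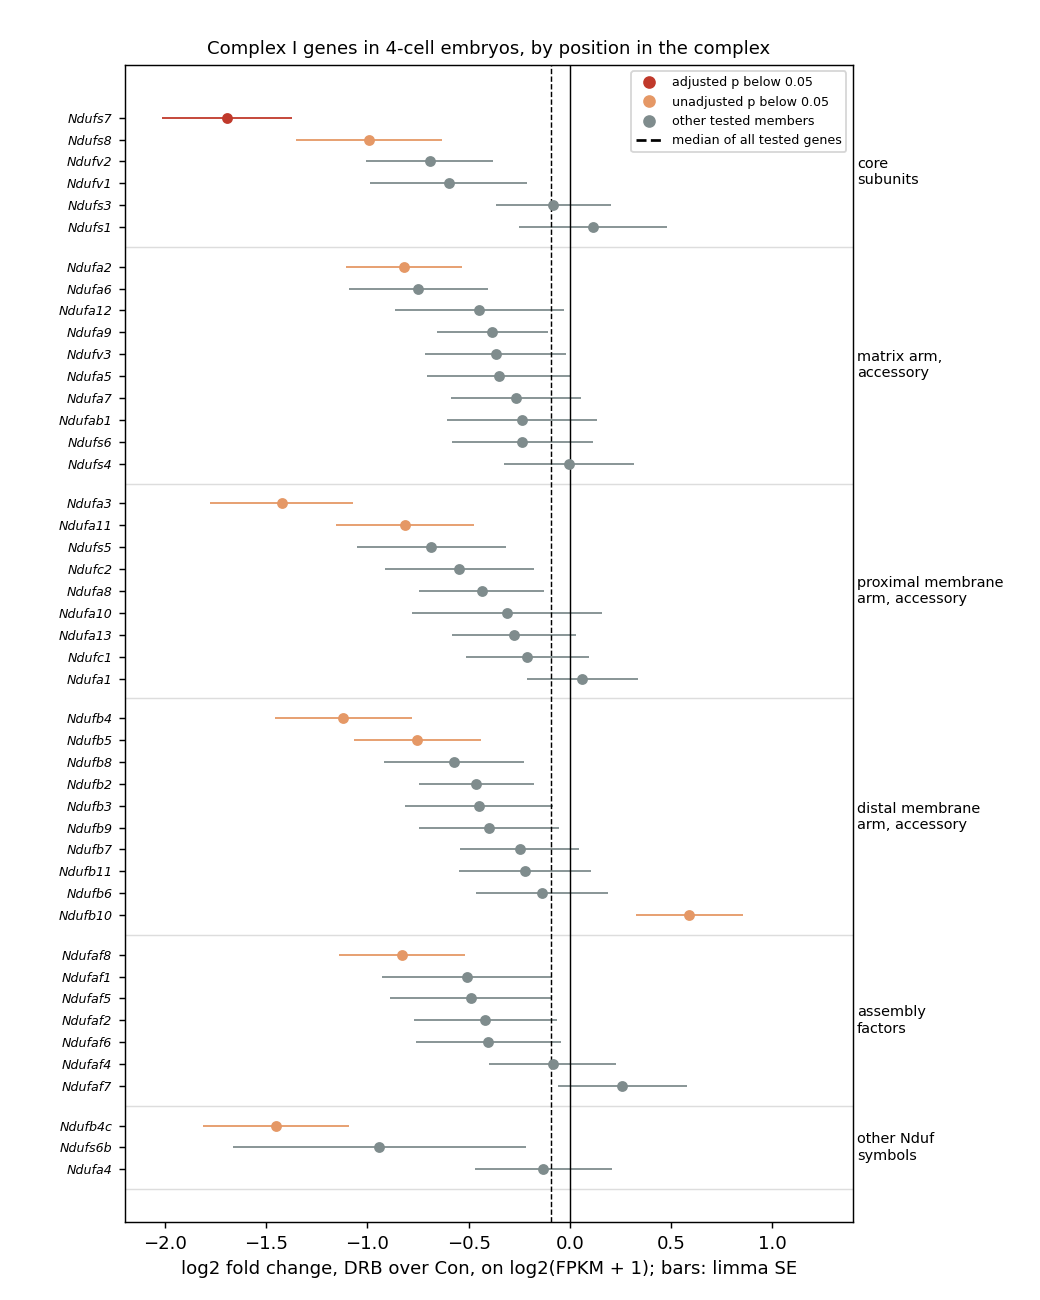
Log2 fold change (x axis, DRB over Con on the log2(FPKM + 1) scale) of 45 tested complex I genes, grouped by position in the complex; points are limma estimates, bars their standard errors, and the dashed line the median of all tested genes (-0.09). Ndufs7 at -1.69 is the only point past the adjusted threshold, and 41 of the 45 points lie below 0.

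The largest fall was that of Ndufs7, a subunit of the catalytic core. Of the 6 nuclear-encoded core subunits described here 5 had a negative log2 fold change (median -0.65), and 2 were lower at an unadjusted limma p below 0.05 (Ndufs7 and Ndufs8). Ndufs7, which holds the last iron-sulfur cluster before ubiquinone, stood at 17.5, 20.3 and 17.3 FPKM in DRB replicates 1 to 3, against 88.5, 52.4 and 50.1 FPKM in Con replicates 1 to 3. The DRB libraries lay close together and all below the lowest Con library. The means were 18.4 ± 1.68 FPKM in DRB and 63.7 ± 21.5 FPKM in Con (SD, n = 3 each), and it fell by 1.69 ± 0.32 SE on the log2 scale, with a limma adjusted p of 0.0226. The gene lies on chromosome 10 (80249121 to 80256794, GRCm38, plus strand), and its exons overlap no other gene in GENCODE M21. Ndufs7 stayed lower in all 6 fits that left out 1 library, with log2 fold changes of -1.84 to -1.44, but was called in 0 of them (limma adjusted p 0.0518 to 0.0778). It also missed the threshold with upper-quartile scaling (limma adjusted p 0.0586) and with no filter on low values (limma adjusted p 0.18).

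Ndufs8, which carries a pair of iron-sulfur clusters in the same part of the matrix arm, stood at 43.2, 60.8 and 112 FPKM in DRB replicates 1 to 3, against 169, 134 and 105 FPKM in Con replicates 1 to 3. DRB replicate 3 lay within the range of the Con libraries, so the groups overlapped (log2 fold change -0.99 ± 0.36 SE, limma adjusted p = 0.178). Ndufs3, a core subunit that holds no redox centre, differed little between the groups, with 53.9, 40.6 and 62.1 FPKM in the DRB libraries and 58.8, 49.9 and 55.1 FPKM in the Con libraries (log2 fold change -0.08 ± 0.28 SE, limma adjusted p = 0.917).

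Ndufv1, Ndufv2 and Ndufs1 form the NADH end of the matrix arm. Ndufv1, which binds NADH and the flavin, was the lowest of the 6 core subunits in all 6 libraries, with 9.16, 5.04 and 7.66 FPKM in the DRB libraries and 10.5, 9.02 and 15.0 FPKM in the Con libraries (log2 fold change -0.60 ± 0.39 SE, limma adjusted p = 0.46). Its partner Ndufv2, an iron-sulfur subunit, stood at 37.5, 64.0 and 40.2 FPKM in the DRB libraries and 71.7, 94.6 and 61.4 FPKM in the Con libraries (log2 fold change -0.69 ± 0.31 SE, limma adjusted p = 0.276). Both had a lower mean in DRB, and both overlapped between the groups. Ndufs1, the largest iron-sulfur subunit, stood at 58.8, 40.9 and 26.1 FPKM in the DRB libraries and 30.1, 31.7 and 51.3 FPKM in the Con libraries, and its DRB mean was the higher one (log2 fold change 0.12 ± 0.37 SE, limma adjusted p = 0.907). DRB replicate 1, the library with the lowest complex I median, had the highest Ndufs1 value of all. The ratio of the highest to the lowest of them was 6.42 to 14.6 in the DRB libraries and 7.01 to 16.0 in the Con libraries, on the FPKM scale. Ndufs8 was the highest of them in DRB replicate 3 and in every Con library, while Ndufs1 was the highest in DRB replicate 1 and Ndufv2 in DRB replicate 2. Summed over the 6, FPKM came to 220.1, 232 and 265 in DRB replicates 1 to 3, against 428, 372 and 338 in Con replicates 1 to 3. These sums did not overlap, but a sum gives most weight to the most abundant genes. Taken singly, only Ndufs7 among the 6 did not overlap between the groups. That is 16.7% with all DRB libraries below all Con libraries, near the 13.9% of all tested genes.

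**Figure D2:**
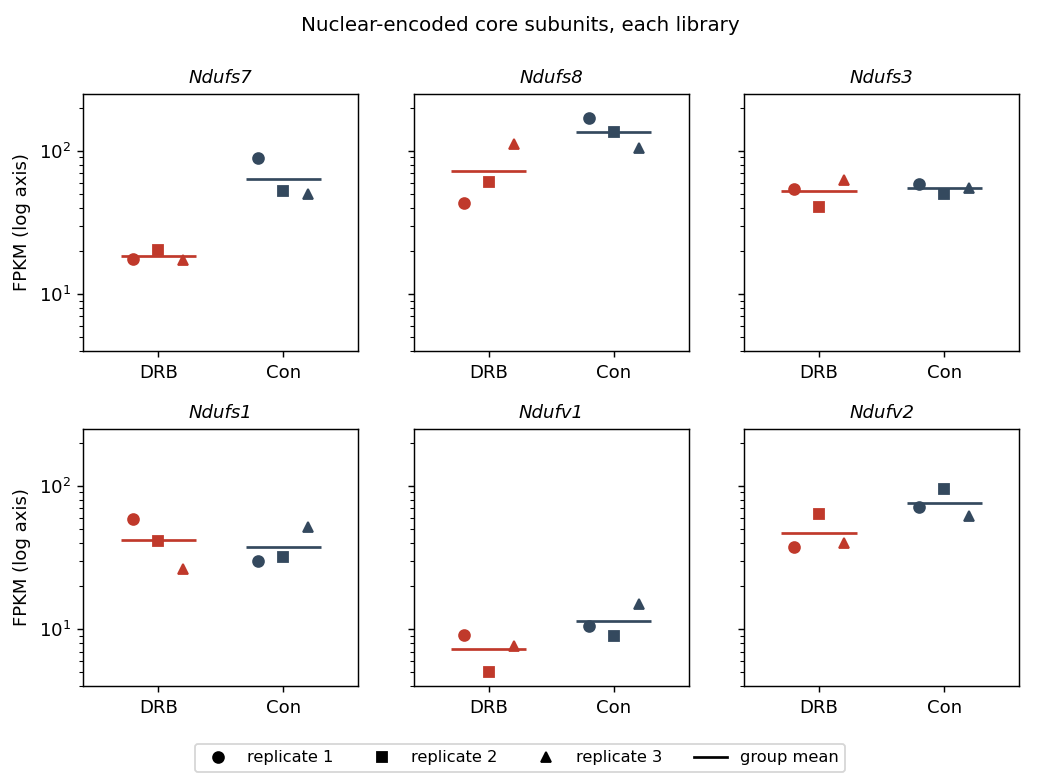
FPKM (log axis) of 6 nuclear-encoded core subunits in each library, with DRB on the left and Con on the right of each panel; symbols mark the replicate and lines the group means. Ndufs7 shows 3 DRB points at 17.3 to 20.3 FPKM under 3 Con points at 50.1 to 88.5 FPKM, while Ndufs3 and Ndufs1 overlap fully.

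The 300-base windows at the start of genes (250 bases before to 50 after, RefSeq, GRCm38.p6) are shown for 3 genes with an unadjusted p below 0.05. They were picked so that each shows a different one of the 3 motifs searched. Ndufb4 (NRF1) and Ndufaf8 (ETS and YY1) also had an unadjusted limma p below 0.05 and a motif, and are not shown. Capitals mark the match.
Ndufs7: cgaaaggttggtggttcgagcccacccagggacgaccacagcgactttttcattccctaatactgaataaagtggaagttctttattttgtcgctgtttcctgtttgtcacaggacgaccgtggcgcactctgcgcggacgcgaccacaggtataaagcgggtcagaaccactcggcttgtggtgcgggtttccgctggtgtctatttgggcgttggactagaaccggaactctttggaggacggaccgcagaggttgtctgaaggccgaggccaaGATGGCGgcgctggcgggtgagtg
Ndufs8: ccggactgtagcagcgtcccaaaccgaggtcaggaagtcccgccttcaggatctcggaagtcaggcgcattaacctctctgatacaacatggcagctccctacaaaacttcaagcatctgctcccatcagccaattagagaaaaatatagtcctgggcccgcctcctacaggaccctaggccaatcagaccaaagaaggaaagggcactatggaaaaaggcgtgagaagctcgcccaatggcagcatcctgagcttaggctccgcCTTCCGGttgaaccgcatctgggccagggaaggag
Ndufa11: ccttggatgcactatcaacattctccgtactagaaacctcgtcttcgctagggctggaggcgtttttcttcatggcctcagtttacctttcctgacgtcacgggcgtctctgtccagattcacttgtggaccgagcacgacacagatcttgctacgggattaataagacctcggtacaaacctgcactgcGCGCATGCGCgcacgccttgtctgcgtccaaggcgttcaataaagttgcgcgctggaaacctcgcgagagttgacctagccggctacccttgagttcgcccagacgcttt
The Ndufs7 window is chr10:80249199-80249498 on the plus strand and holds the YY1 letters GATGGCG from base 27 after the RefSeq start, where they include an ATG. GENCODE M21 begins Ndufs7 further upstream, at 80249121, so the whole window lies inside the gene as GENCODE places it. The Ndufs8 window is chr19:3912725-3913024 on the minus strand and holds the ETS letters CCGGAAG in reverse complement, from base 16 after the start. The Ndufa11 window is chr17:56717512-56717811 on the plus strand and holds the NRF1 letters (GCGCA, any base, GCGC) from 60 bases before the start. NRF1, ETS factors and YY1 are transcription factors long known to act on nuclear genes of the respiratory chain. Both strands were searched, and of the 49 symbols 40 matched the promoter table. The NRF1 letters were in the windows of 9 of these 40 genes, or 22.5%, against 5.19% of all 27025 symbols in the table. The YY1 letters were in 8 of 40, or 20.0%, against 4.04%, and the ETS letters in 6 of 40, or 15.0%, against 9.93%. The motifs were found in genes with larger and with smaller log2 fold changes. The NRF1 group included Ndufa11 and Ndufb4 but also Ndufaf4 and Ndufs6, with the smaller log2 fold changes of -0.09 and -0.23. A match of letters is a description of the window and does not show that a factor binds there.

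Accessory subunits of the matrix arm had negative log2 fold changes in 10 of 10 genes (56.0% of all tested genes), with a median of -0.36. By limma 0 passed at an adjusted p below 0.05, and 1, Ndufa2, was lower at an unadjusted p below 0.05 (10.5% of all tested genes). Ndufa2, a small subunit with a thioredoxin-like fold, stood at 142, 144 and 243 FPKM in DRB replicates 1 to 3, against 258, 340.1 and 315 FPKM in Con replicates 1 to 3. All DRB libraries were below all Con libraries (log2 fold change -0.82 ± 0.29 SE, limma adjusted p = 0.159), with DRB replicate 3 close to the lowest Con library. Ndufa7 was the most abundant gene of this arm, with 213, 412 and 463 FPKM in the DRB libraries and 363, 513 and 379 FPKM in the Con libraries, and overlapped widely (log2 fold change -0.27 ± 0.32 SE, limma adjusted p = 0.732). The other 8 (Ndufa5, Ndufa6, Ndufa9, Ndufa12, Ndufab1, Ndufs4, Ndufs6 and Ndufv3) had log2 fold changes of -0.75 to -0.003 and limma adjusted p-values of 0.281 to 0.997. Among them Ndufab1 is the mitochondrial acyl carrier protein, and Ndufs4 and Ndufs6 help to hold the NADH end in place. Ndufs4 hardly differed, with 17.2, 18.4 and 15.4 FPKM in the DRB libraries and 19.0, 18.5 and 13.9 FPKM in the Con libraries.

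In the proximal membrane arm 8 of 9 accessory subunits had a negative log2 fold change (median -0.44), against 56.0% of all tested genes. None was called by limma at an adjusted p below 0.05. Ndufa3 and Ndufa11 were lower at an unadjusted p below 0.05 (10.5% of all tested genes). Ndufa3, a small membrane subunit, stood at 24.9, 25.0 and 58.5 FPKM in DRB replicates 1 to 3, against 88.6, 90.4 and 94.0 FPKM in Con replicates 1 to 3. The Con libraries lay within a few FPKM of each other, and even DRB replicate 3, the highest of its group, was clearly below them. The means were 36.1 ± 19.4 FPKM in DRB and 91.0 ± 2.74 FPKM in Con (SD, n = 3 each), with a log2 fold change of -1.43 ± 0.35 SE and a limma adjusted p of 0.0629. Ndufa3 did pass without DRB replicate 3 (limma adjusted p 0.0165) and with a minimum of 5 FPKM (limma adjusted p 0.0441). Its exons overlap those of Tfpt on the opposite strand, and reads from such a stretch cannot be told apart without strand information.

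Ndufa11, which helps to join the membrane arm to neighbouring subunits, stood at 152, 223 and 338 FPKM in DRB replicates 1 to 3, against 276, 465 and 490.4 FPKM in Con replicates 1 to 3. DRB replicate 3 lay above Con replicate 1, and the difference was not called (log2 fold change -0.81 ± 0.34 SE, limma adjusted p = 0.24). Ndufa1 and Ndufc1 were about as abundant and showed little difference. Ndufa1, a subunit encoded on the X chromosome, stood at 351, 250.2 and 398 FPKM in the DRB libraries and 256, 338 and 354 FPKM in the Con libraries (log2 fold change 0.06 ± 0.27 SE, limma adjusted p = 0.935). Ndufc1 stood at 261, 283 and 348 FPKM in the DRB libraries and 222, 409.9 and 435 FPKM in the Con libraries (log2 fold change -0.21 ± 0.30 SE, limma adjusted p = 0.781). The remaining 5 (Ndufa8, Ndufa10, Ndufa13, Ndufc2 and Ndufs5) had log2 fold changes of -0.68 to -0.28, none called. Of these, Ndufa10 resembles nucleoside kinases and had the lowest Con mean of the accessory subunits, at 6.79 to 19.2 FPKM.

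In the distal membrane arm 9 of 10 accessory subunits had a negative log2 fold change (median -0.42), against 56.0% of all tested genes. By limma 0 were called at an adjusted p below 0.05. Ndufb4 and Ndufb5 were lower and Ndufb10 higher at an unadjusted p below 0.05, against 10.5% and 7.53% of all tested genes. Ndufb5 stood at 37.9, 75.3 and 70.1 FPKM in DRB replicates 1 to 3, against 93.4, 104 and 101 FPKM in Con replicates 1 to 3, without overlap (log2 fold change -0.75 ± 0.31 SE, limma adjusted p = 0.234). Ndufb10, a subunit with twin cysteine pairs imported through the intermembrane space, ran the other way, at 152, 225 and 166 FPKM in DRB replicates 1 to 3, against 111, 133 and 111 FPKM in Con replicates 1 to 3. It was the 1 tested complex I gene whose DRB libraries all lay above the Con libraries (log2 fold change 0.59 ± 0.26 SE, limma adjusted p = 0.266). Ndufb6 and Ndufb2 were the most abundant of this arm. Ndufb6 stood at 224, 339.5 and 504 FPKM in the DRB libraries and 290.4, 389 and 453 FPKM in the Con libraries, with full overlap (log2 fold change -0.14 ± 0.33 SE, limma adjusted p = 0.876). Ndufb2 stood at 153, 234 and 258 FPKM in the DRB libraries and 259, 360.3 and 259 FPKM in the Con libraries, where the highest DRB library lay less than 1 FPKM under the lowest Con library (log2 fold change -0.46 ± 0.29 SE, limma adjusted p = 0.435). The other 5 (Ndufb3, Ndufb7, Ndufb8, Ndufb9 and Ndufb11) had log2 fold changes of -0.57 to -0.22, none called.

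Ndufb4 has to be read together with Ndufb4c, a processed pseudogene on chromosome 15 (73809507 to 73809896, GRCm38, minus strand) whose symbol also begins with Nduf. The 390 bases of the Ndufb4c transcript are identical to a stretch of the Ndufb4 transcript, so that reads from these bases cannot be assigned to one or the other. The shared stretch is shown by its first 90 bases, which begin with an ATG and are the same in both genes.
Ndufb4c: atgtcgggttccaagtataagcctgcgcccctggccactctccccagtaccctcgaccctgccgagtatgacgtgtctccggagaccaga
Ndufb4, on chromosome 16, stood at 7.82, 8.26 and 8.73 FPKM in DRB replicates 1 to 3, against 15.4, 22.7 and 19.9 FPKM in Con replicates 1 to 3. Ndufb4c stood at 25.4, 21.9 and 48.8 FPKM in DRB replicates 1 to 3, against 66.3, 113 and 79.8 FPKM in Con replicates 1 to 3. Both rows had all DRB libraries below all Con libraries, and neither was called (Ndufb4: log2 fold change -1.12 ± 0.34 SE, limma adjusted p = 0.113; Ndufb4c: log2 fold change -1.45 ± 0.36 SE, limma adjusted p = 0.0624). As with Ndufa3, Ndufb4c passed without DRB replicate 3 (limma adjusted p 0.0311) and with a minimum of 5 FPKM (limma adjusted p 0.0438). The level per kilobase listed for the pseudogene was above that of its parent in each of the 6 libraries, a result that depends on how reads of the shared bases were assigned, which the sources do not state.

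The assembly factors were low compared with the subunits, with a median log2 value per library of 4.49 to 5.19 in DRB and 5.00 to 5.32 in Con, against 5.77 to 6.23 and 6.49 to 6.72 for the subunits and subunit-like genes. Of the 8, 7 were tested and 6 had a negative log2 fold change, against 56.0% of all tested genes. By limma 0 passed at an adjusted p below 0.05, and 1 was lower at an unadjusted p below 0.05 (10.5% of all tested genes). That gene was Ndufaf8, the partner that stabilises Ndufaf5 in human cells, at 21.5, 22.3 and 35.5 FPKM in DRB replicates 1 to 3, against 46.2, 51.2 and 42.5 FPKM in Con replicates 1 to 3. Its groups did not overlap (log2 fold change -0.83 ± 0.31 SE, limma adjusted p = 0.19). Ndufaf5 itself, the enzyme that hydroxylates an arginine of Ndufs7 in human cells, stood at 12.7, 16.1 and 17.7 FPKM in the DRB libraries and 33.1, 25.9 and 12.2 FPKM in the Con libraries. Con replicate 3 was the lowest of all 6 libraries for Ndufaf5, so the groups overlapped (log2 fold change -0.49 ± 0.40 SE, limma adjusted p = 0.575). Ndufaf7, a methyltransferase of the mitochondrial matrix, stood at 34.2, 44.3 and 35.5 FPKM in the DRB libraries and 39.0, 35.3 and 22.3 FPKM in the Con libraries and had a higher mean in DRB (log2 fold change 0.26 ± 0.32 SE, limma adjusted p = 0.733).

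Ndufaf1, a member of the complex that assembles the membrane arm, stood at 23.1, 53.1 and 82.2 FPKM in the DRB libraries and 55.7, 65.4 and 81.9 FPKM in the Con libraries (log2 fold change -0.51 ± 0.42 SE, limma adjusted p = 0.579). Its values were lowest in DRB replicate 1, while DRB replicate 3 was as high as the highest Con library. Ndufaf4, which works on the early matrix arm, stood at 37.0, 41.8 and 66.8 FPKM in the DRB libraries and 41.5, 52.5 and 56.9 FPKM in the Con libraries (log2 fold change -0.09 ± 0.32 SE, limma adjusted p = 0.92). Its partner Ndufaf3 did not pass the filter and reached at most 2.75 FPKM, in DRB replicate 3. Ndufaf2, a paralogue of the subunit Ndufa12, stood at 12.5, 18.5 and 11.4 FPKM in the DRB libraries and 14.3, 22.9 and 20.2 FPKM in the Con libraries (log2 fold change -0.42 ± 0.35 SE, limma adjusted p = 0.591). Ndufaf6 stood at 13.7, 15.1 and 17.1 FPKM in the DRB libraries and 15.1, 18.2 and 31.0 FPKM in the Con libraries (log2 fold change -0.40 ± 0.36 SE, limma adjusted p = 0.614). Each of these 4 tested factors overlapped between the groups.

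Some symbols do not denote complex I subunits. Ndufa4, now known as a subunit of cytochrome c oxidase, was the most abundant Nduf gene by mean in both groups, at 248, 514 and 581 FPKM in the DRB libraries and 381, 565 and 451 FPKM in the Con libraries, and overlapped fully (log2 fold change -0.13 ± 0.34 SE, limma adjusted p = 0.889). GENCODE M21 lists 3 of the 49 genes as processed pseudogenes, namely Ndufb4c, Ndufs6b and Ndufa11b. Ndufs6b, which differs from the Ndufs6 transcript in 12 of 348 bases, ranged from 0.850 to 3.17 FPKM in DRB and from 0.50 to 14.0 FPKM in Con. Ndufa11b reached at most 0.440 FPKM and did not pass the filter, and Ndufa4l2 was listed at 0 in every library. With the pseudogenes left out, 9 of 44 tested genes were lower at an unadjusted limma p below 0.05, 40 had a negative sign and the median was -0.41. The rule also leaves out Ndufb1-ps, which stood at 43.2, 52.9 and 60.1 FPKM in DRB replicates 1 to 3, against 42.4, 52.9 and 52.1 FPKM in Con replicates 1 to 3.

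The levels of the tested genes spanned a wide range and ranked alike in both groups. The median tested gene stood at 37.7, 53.1 and 64.4 FPKM in DRB replicates 1 to 3, against 69.0, 82.8 and 78.9 FPKM in Con replicates 1 to 3. In Con, 11 of the 46 averaged over 200 FPKM and 6 under 20 FPKM. Spearman's rho between the DRB and Con means was 0.94 across the 46 genes, which share libraries and depth. Ndufs7 was among those that moved most in this order, at rank 38 of 49 in DRB and rank 26 in Con. Across the 46 genes the log2 fold change followed neither the median transcript length (rho 0.08) nor the Con level (rho 0.11); these are descriptions over genes of the same libraries. The 49 genes lie on 17 chromosomes. Of the 46 tested, 17 have an exon that overlaps an exon of another gene, in 15 cases one on the opposite strand, among them Ndufa2, Ndufa3, Ndufa11, Ndufb2, Ndufb5, Ndufb6, Ndufs1 and Ndufs3, and the library protocol in the labels does not mention a strand-marking step.

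The DRB libraries differed from each other, with a median log2 value of the tested complex I genes of 5.27, 5.76 and 6.03 in DRB replicates 1 to 3, against 6.13, 6.38 and 6.32 in Con replicates 1 to 3. In DRB replicate 1, 34 of the 46 tested genes lay below all 3 Con libraries, compared with 27 in DRB replicate 2 and 14 in DRB replicate 3. In DRB replicate 3, 22 genes lay within the Con range and 10 above it. The median difference from the Con mean of log2 values was -0.90, -0.42 and -0.12 in DRB replicates 1 to 3. Of the 46 genes 28 had their lowest value in DRB replicate 1, and 18 had their highest in Con replicate 2. Over all tested genes the median log2 value was 3.18, 3.05 and 2.88 in DRB replicates 1 to 3, against 3.14, 3.07 and 3.03 in Con replicates 1 to 3, so that the library with the lowest complex I median had the highest median over all genes.

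**Figure D3:**
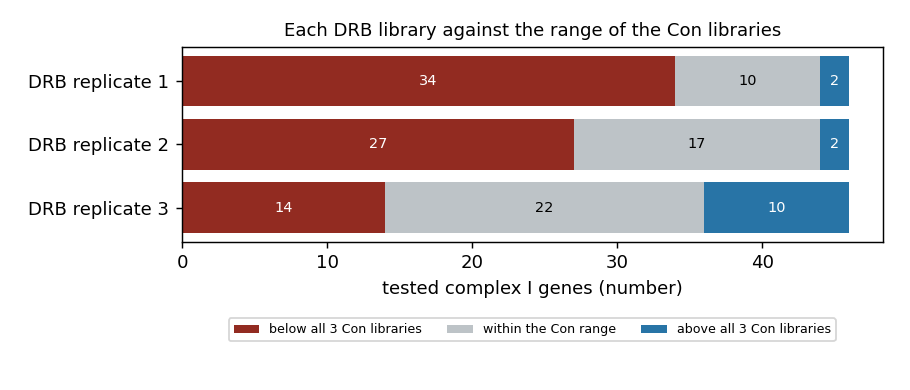
Number of the 46 tested complex I genes (x axis) whose value in each DRB library was below all 3 Con libraries, within their range, or above all 3. The number below the Con range is 34 genes in DRB replicate 1 and 14 in DRB replicate 3.

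The ND subunits encoded in the mitochondrial genome had fold changes of the opposite sign to most nuclear-encoded ones, none of them past the test. The log2 fold change was above 0 for all 7 (median 0.39), and 0 of 7 passed limma at an adjusted or an unadjusted p below 0.05. For 3 of the 7 the DRB libraries lay entirely above the Con libraries, as they did for 9.85% of all tested genes. mt-Nd4, a proton-pumping subunit, stood at 8855, 9559 and 11265 FPKM in DRB replicates 1 to 3, against 6356, 7204 and 7893 FPKM in Con replicates 1 to 3 (log2 fold change 0.47 ± 0.26 SE, limma adjusted p = 0.378). mt-Nd1, at the junction of the arms, stood at 15417, 17250.5 and 21196 FPKM in the DRB libraries and 14731, 17904 and 18039 FPKM in the Con libraries (log2 fold change 0.08 ± 0.28 SE, limma adjusted p = 0.915). The summed FPKM of the 7 ND genes was 11.6, 9.66 and 7.94 times that of the Nduf genes in DRB replicates 1 to 3, against 6.46, 5.60 and 6.47 times in Con replicates 1 to 3. This ratio was higher in every DRB library than in every Con library, and it needs no scaling between libraries. Relative to the sum of complexes II to V (below), the ND sum was also higher in every DRB than every Con library. The ND sum alone overlapped. It was 39267.4, 44500.1 and 48298.9 FPKM in DRB replicates 1 to 3 and 32470.3, 37319 and 39636.5 FPKM in Con replicates 1 to 3. The Nduf genes took 0.327%, 0.387% and 0.483% of all FPKM in DRB replicates 1 to 3, against 0.433%, 0.566% and 0.562% in Con replicates 1 to 3, and DRB replicate 3 lay above Con replicate 1. Their share of FPKM without mitochondrial genes overlapped too. It was 0.440%, 0.509% and 0.656% in the DRB libraries and 0.493%, 0.697% and 0.702% in the Con libraries. All mitochondrial genes together took 25.7%, 23.9% and 26.4% of FPKM in the DRB libraries and 12.2%, 18.7% and 20.0% in the Con libraries. With the mitochondrial genes left out of the totals, the median log2 fold change was -0.28 for the Nduf genes and 0.03 for all tested genes.

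**Figure D4:**
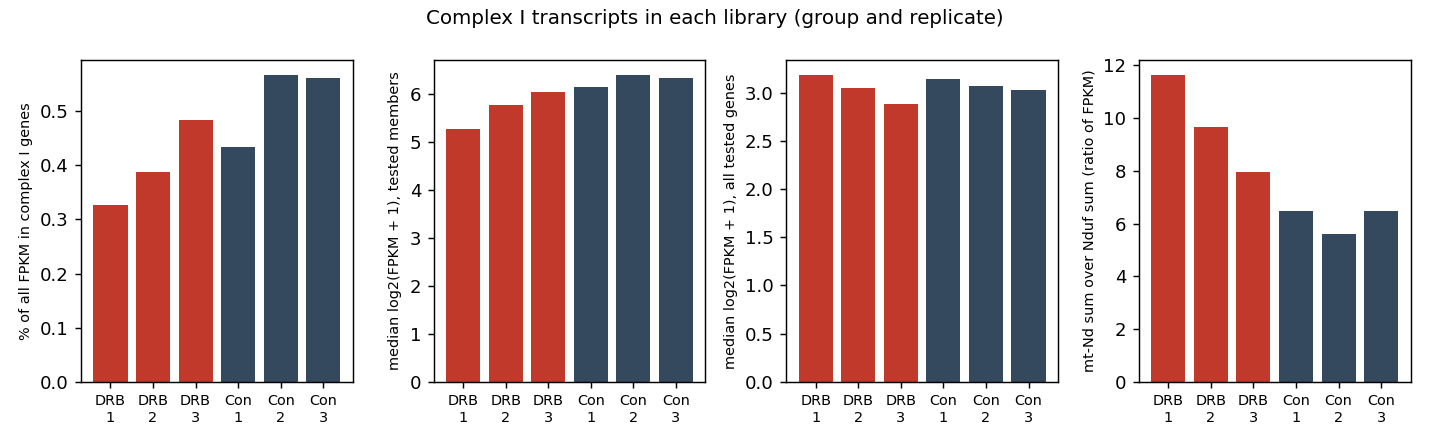
From left to right, for each library: the percentage of all FPKM in the 49 complex I genes, the median log2(FPKM + 1) of the 46 tested members, the same median over all tested genes, and the ratio of the summed FPKM of the 7 mt-Nd genes to that of the Nduf genes. The ratio is 7.94 to 11.6 in DRB and 5.60 to 6.47 in Con, while the percentages overlap.

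Neighbouring genes of the pathway gave no call of their own. Of 10 assembly factors without an Nduf symbol 9 were in the files and tested, and 0 were called by limma. Their log2 fold change was negative for 8 of the 9, against 56.0% of all tested genes. Its median was -0.21, against -0.09 over all tested genes. At an unadjusted limma p below 0.05, 1 was higher, against 7.53% of all tested genes. That gene was Foxred1, an assembly factor, at 6.48, 3.96 and 5.82 FPKM in the DRB libraries and 2.44, 2.44 and 1.20 FPKM in the Con libraries, with no overlap (log2 fold change 1.09 ± 0.42 SE, limma adjusted p = 0.198). It was the 1 gene of the 9 with all DRB libraries above all Con libraries, against 9.85% of all tested genes. Dmac1 was the 1 gene with all DRB libraries below, against 13.9%. The most abundant were Tmem70 and Dmac1, at 135 ± 11.3 FPKM in DRB and 149.9 ± 32.9 FPKM in Con (SD, n = 3 each) and 19.6 ± 1.77 FPKM in DRB and 30.4 ± 6.51 FPKM in Con (SD, n = 3 each). Complex I also needs iron-sulfur clusters, and of 14 genes of their assembly 12 were tested and 0 were called by limma. Of the 12, 3 were lower at an unadjusted limma p below 0.05, against 10.5% of all tested genes. The median was -0.49, against -0.09 over all tested genes. Those 3 were Isca2, Isca1 and the scaffold Iscu. The DRB libraries lay entirely below the Con libraries in 4 of the 12, these 3 and Bola3, against 13.9% of all tested genes. Isca2, which acts late in cluster assembly, stood at 15.2, 7.25 and 18.3 FPKM in DRB replicates 1 to 3, against 31.8, 54.2 and 30.5 FPKM in Con replicates 1 to 3 (log2 fold change -1.49 ± 0.40 SE, limma adjusted p = 0.082). Iscu stood at 29.8, 38.1 and 23.1 FPKM in the DRB libraries and 55.9, 52.9 and 45.6 FPKM in the Con libraries and the chaperone Hspa9 at 87.5, 64.9 and 61.9 FPKM in the DRB libraries and 86.7, 84.5 and 88.3 FPKM in the Con libraries.

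For comparison, the nuclear-encoded genes of complexes II to V (Sdh, Uqcr, Cyc1, Cox and Atp5 symbols) had 47 tested genes. Of these limma called 1 lower and 0 higher, against 0.95% and 1.53% of all tested genes. At an unadjusted p below 0.05, 19 of the 47, or 40.4%, were lower and 0 higher, against 10.5% and 7.53% of all tested genes, and the median log2 fold change was -0.46. How far the 40.4% differs from the 21.7% of the complex I genes was not tested. Unlike the complex I count, it was not examined with single libraries left out.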

How the data were processed

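Libraries were made by Smart-Seq2 and sequenced as paired ends, per the labels' protocols, and the submitters' processing notes name cutadapt 1.16, STAR and mm10. Each deposited file gives 1 FPKM value per gene, per its header; which program made these values, and from which annotation, the sources used here do not say. Since FPKM is relative to the size of the library, more of an abundant transcript means lower values elsewhere.

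The test was limma (version 3.58.1, run in R 4.3.3) with its trend option on log2(FPKM + 1), over all 6 libraries and the genes that reached 1 FPKM in 3 or more of them. P-values are two-sided, Benjamini-Hochberg adjusted over 11893 genes, and called below 0.05. No source says that replicates came from separate cultures, so p-values speak only of the spread among these libraries, and that spread may be technical.

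The members, the neighbouring lists and the rule for named genes were chosen with earlier results of these data known. The rule took called members, those with an unadjusted p below 0.05, the 2 most abundant of each group, the assembly factors and the core subunits, except 1 member that is not reported here on its own; others named (Ndufs4, Ndufa10) were chosen after their values were seen. Gene positions are from GENCODE M21 and promoters from RefSeq, both GRCm38, the assembly called mm10. The fragments per library were estimated from the smallest values of single-transcript genes, of which 75.2% to 85.3% lay within 0.15 of a whole number after 140 to 180 bases were taken off the length. Alternatives were another pseudocount, other filters and scalings, no mitochondrial genes, a replicate block and leaving out each library. Tables and figures used pandas 2.3.3, numpy 2.4.6 and matplotlib 3.10.9 under Python 3.11.15.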

Additional observations from a re-analysis of the deposited data

How the results depend on the processing

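The count of complex I genes called lower was 1, and it was 3 (Ndufs7, Ndufa3 and Ndufb4c) with a minimum of 5 FPKM, 0 with no filter, 0 with upper-quartile scaling and 0 to 2 when 1 library was left out. It stayed at 1 with median-of-ratios scaling, with a pseudocount of 0.1 and without mitochondrial genes. With the replicate block it was 0 (Ndufs7 at a limma adjusted p of 0.0508); the correlation of same-numbered libraries, as deviations from their group means, was -0.051 to 0.053, so the numbers were not taken as pairs. The count called higher was 0 in every setting. The median of the complex I genes was -0.44 to -0.28 across settings with all libraries and -0.62 to -0.23 when 1 library was left out. Leaving out mitochondrial genes moved the median of all genes from -0.09 to 0.03, and relative to it the complex I median was -0.32, against -0.33 before; without DRB replicate 1 it was -0.06.

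Among the 26 genes given in full, those near 0 changed sign: with mitochondrial genes left out Ndufa4 was at 0.02, Ndufaf4 at 0.06, Ndufb6 at 0.01 and Ndufs3 at 0.07, and with median-of-ratios scaling Ndufaf4 was at 0.02 and Ndufs3 at 0.03. When 1 library was left out, Ndufa1 ranged from -0.08 to 0.26, Ndufa4 from -0.36 to 0.25, Ndufa7 from -0.48 to 0.08, Ndufaf4 from -0.33 to 0.08, Ndufb6 from -0.43 to 0.16, Ndufs1 from -0.16 to 0.41 and Ndufs3 from -0.21 to 0.09. The causes were not tested. With 3 libraries per group the standard error of the protein-coding genes was 0.26 to 0.47 on the log2 scale, which limits what could be called.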
